A study of Mus musculus with 16 samples.

Results

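Endosteal haematopoietic stem cells (HSCs) of Gfra2-/- mice were compared with those of wild-type (WT) mice across all genes. The comparison held 8 RNA-Seq libraries of the 15 used from the series, 4 of endosteal WT HSCs and 4 labelled Gfra2-/-. They were chosen by their place in the deposited count table, as the WT and the Gfra2-/- endosteal columns. All mice were untreated C57/Bl6, the WT mice with intact Gfra2 and the knockout mice without it in every tissue, so that the HSCs and their surroundings lacked the gene alike. Each pool held 30 HSCs in the LSK CD48-CD150+ gate, released by crushing long bones after the marrow had been flushed out. Whether the pools of a group came from separate mice is not given in the sample labels, so the tests measure the spread between these pools. The table's columns carry no replicate numbers, and the libraries of each group are lettered A to D in table order.

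Gfra2 encodes GFRα2, the receptor that binds neurturin and signals through the tyrosine kinase RET. It is needed for the survival of cholinergic neurons, and the study used the knockout as a model of lost cholinergic nerves in bone marrow (BM). Endosteal HSCs lie next to bone and are known as mostly quiescent cells. Quiescent HSCs make little protein, and their ribosome content and mitochondrial respiration are known to be held low until they divide, so genes of both systems were examined beside those of the cell cycle, of stem cell identity and of niche signals.

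Gfra2 (chromosome 14 of GRCm38, 70890120 to 70979838) was close to absent in both groups. WT libraries A to D held 0, 0, 0 and 1 reads of it, and those labelled Gfra2-/- held 2, 47, 1 and 9. The loss of Gfra2 was therefore not detectable at this depth. Libraries B and D labelled Gfra2-/- held the most reads, which go against the knockout label unless they lie outside the deleted part. Counts per gene do not show where in the gene they lie. The counts and medians of the main groups are given with and without libraries B and D. Depth was 4416648 to 14003634 gene counts in WT libraries and 8519094 to 18550008 in those labelled Gfra2-/- (exact two-sided permutation p = 0.314). Between 11451 and 14160 genes reached 5 counts in WT libraries and between 12986 and 14527 in the others. WT library A was the shallowest and, with library D labelled Gfra2-/-, correlated least with the rest (Pearson's r of 0.628 to 0.713 for these 2 libraries, against 0.744 to 0.775 among the other 6, over log2 values of the genes tested). Spike-in RNAs took under 0.5% of the counts in library D of each group and at least 0.805% in the others. Genes of HSCs were present in every library. Kit had 569 to 1024 CPM (counts per 1000000 of the TMM-scaled library) and the HSC factor Hlf 298 to 636 CPM over all 8 libraries. Slamf1 (CD150), used for the sort, had 10.3 to 137 CPM, and Cd48, which the sort excluded, lay between 0.0686 and 14.9 CPM. Of the 8 sort-gate genes, 0 had an unadjusted p under 0.05 in either direction.

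Markers of B cells and erythrocytes were highest in library D labelled Gfra2-/-, and lists of several other cell types had members read in all 8 libraries. Immunoglobulin heavy chain Ighm reached 1659.8 CPM there against at most 20.3 CPM in the other 7 libraries, the B cell receptor subunit Cd79b reached 634 CPM against at most 101, and the adult globin Hbb-bs reached 341 CPM against at most 4.21. The summed level of the B cell list was 19.6 to 101 CPM in WT libraries and 55.2 to 4931 CPM in those labelled Gfra2-/-, with 11 of 12 markers reaching 5 counts in some library. That of the erythrocyte list was 16.6 to 112 and 14.0 to 696 CPM, with 10 of 10 markers. The endothelial list summed to 437 to 670 CPM in WT and 457 to 902 CPM in the others. Its genes Eng (197 to 531 CPM) and Tie1 (112 to 288 CPM), which HSCs are also known to express, were read in every library, while Cdh5 was at 0 in all 8, as were 2 more of its 13 members. The neutrophil and monocyte list summed to 553 to 1018 and 493 to 714 CPM, with Lyz2 at 384 to 778 CPM and Prtn3 at 70.1 to 426 CPM over all libraries and Elane and 1 more of its 14 members at 0. The stromal and osteolineage list summed to 115 to 207 and 136 to 248 CPM, with Runx2 at 96.6 to 225 CPM, Col1a1 at 18.9 CPM or less and 6 of 22 members at 0. The neuron and Schwann cell list summed to 128 to 381 and 100 to 167 CPM, with 4 of 12 members at 0. Sums were lower for the T and NK cell list (13.2 to 113 and 38.3 to 86.3 CPM, with Cd3e among 8 of 13 members at 0), the macrophage and osteoclast list (1.39 to 44.3 and 26.0 to 60.3 CPM, 2 of 14 at 0) and the mast cell and basophil list (0 to 21.4 and 0 to 6.62 CPM, with Mcpt8 among 5 of 9 at 0). The part of RNA from other cells in the differences below was not tested, and the main counts are also given without the libraries concerned.

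Across all genes, no single difference between the genotypes passed the threshold. Of 12970 genes tested with edgeR's quasi-likelihood test, 0 (0%) passed a Benjamini-Hochberg false discovery rate (FDR) of 0.1, and the lowest FDR was 0.392. At an unadjusted p under 0.05 stood 868 genes, 6.69% of those tested, with 412 (3.18%) higher and 456 (3.52%) lower in libraries labelled Gfra2-/-. In 809 genes (6.24%), the CPM of the groups did not overlap, with 347 (2.68%) higher and 462 (3.56%) lower. DESeq2's Wald test called 535 of 14366 genes (3.72%) at the same FDR, 278 (1.94%) higher and 257 (1.79%) lower, so the count of calls depended on the test. The genes named below are described by their values and are not called as changed.

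The 15 protein-coding genes with the smallest p among those with groups that did not overlap are shown in each direction in the plot of values by library. Because they were selected on this contrast, the gap between their groups is a description. On the higher side, several were expressed in every library of both groups. Carbonic anhydrase 2 (Car2), an enzyme of carbon dioxide hydration, had 1219.9, 1162, 1128 and 1457 CPM in WT libraries A to D and 2396, 1758, 2619 and 2474 CPM in libraries A to D labelled Gfra2-/-. Its log2 fold change was 0.90 (SE 0.18, FDR = 0.392 from edgeR). Umps, which makes uridine monophosphate in pyrimidine synthesis, had 47.7, 53.5, 71.2 and 38.8 CPM in WT libraries and 133, 188, 127 and 251 CPM in the others, a log2 fold change of 1.73 (SE 0.35). The adaptor Sh2d3c, which links receptors to integrin signalling, had 7.20, 20.1, 27.9 and 9.11 CPM against 105, 92.5, 69.4 and 166 CPM. Fyttd1, a factor of mRNA export, had 21.6, 41.5, 15.4 and 53.6 against 112, 160.4, 127 and 224 CPM. The cation channel Trpc6 had 35.8, 21.9, 26.2 and 59.9 against 158, 83.6, 129 and 164 CPM. In these 3 genes every labelled library exceeded the highest WT library.

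**Figure D1:**
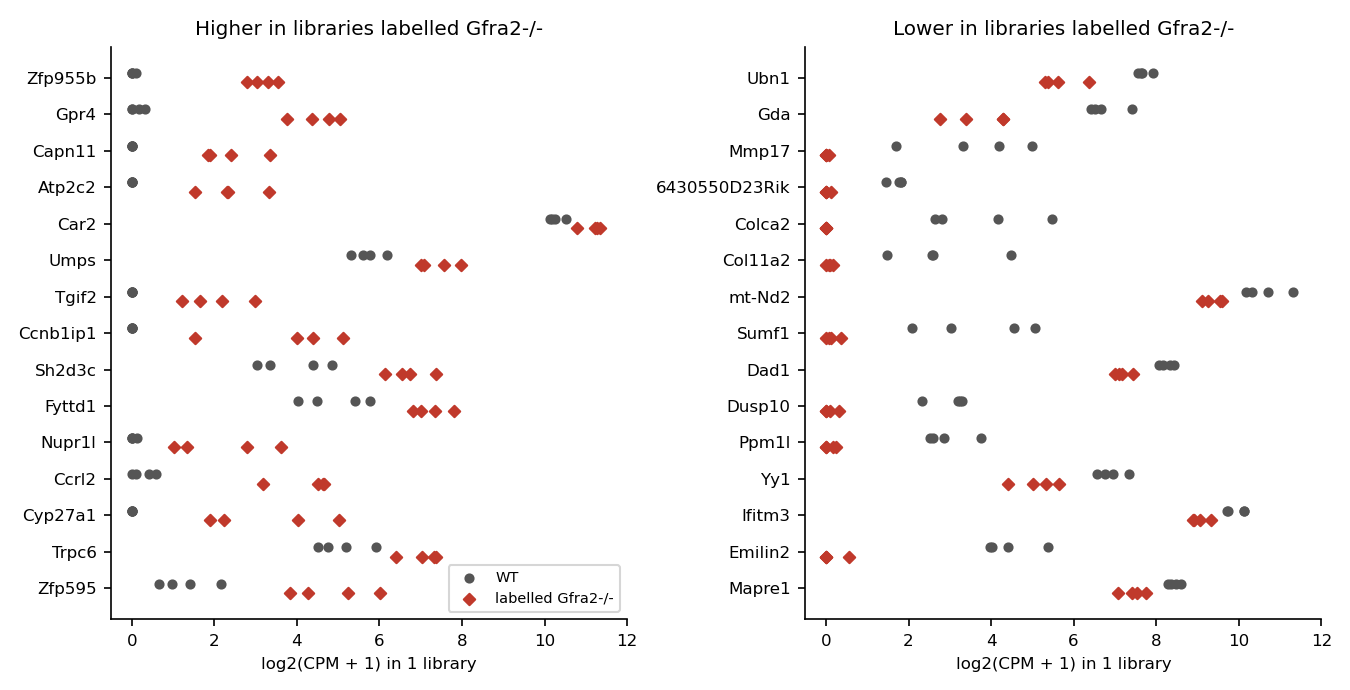
Expression of the 15 protein-coding genes with the smallest edgeR p in each direction among genes with groups that did not overlap; each point is 1 library, on a log2(CPM + 1) axis, circles for WT and diamonds for libraries labelled Gfra2-/-. Car2, Ubn1, Dad1, Yy1 and Ifitm3 were expressed in all 8 libraries, whereas Ccnb1ip1 had 0 counts in WT and Colca2 0 counts in libraries labelled Gfra2-/-.

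Other genes on the higher side were close to absent from WT pools. Gpr4, a receptor that senses protons, had 1, 2, 0 and 0 counts in the WT libraries and 283, 245, 223 and 353 counts in those labelled Gfra2-/-. Ccnb1ip1, a ubiquitin ligase of meiotic crossing-over, had 0 counts in all WT libraries and 216, 659, 166 and 21 counts in the others, so that its CPM was at least 47.6-fold higher when WT was set at the floor of 3 counts per library. Library D held the fewest of these reads. The sterol hydroxylase Cyp27a1 had 0 counts in WT and 457, 298, 31 and 30 counts in the others, at least 36.0-fold higher. The calpain protease Capn11 had 0 and 62, 51, 77 and 30 counts (at least 12.7-fold higher). The calcium pump Atp2c2 of the secretory pathway had 0 and 58, 77, 16 and 100 counts (at least 12.8-fold higher). Tgif2, a corepressor of TGF-β signalling, also had 0 counts in WT and 19, 69, 18 and 77 counts in the others (at least 9.45-fold higher). These 5 genes were read in every labelled library. The zinc finger gene Zfp955b had 0, 1, 0 and 0 and 85, 172, 60 and 117 counts in the same order. Nupr1l had 0, 0, 0 and 1 and 15, 30, 95 and 65 counts. Ccrl2, a chemerin-binding receptor, had 2, 1, 0 and 4 and 116, 423, 199 and 269 counts. The zinc finger gene Zfp595 was present in both groups, with 3.48, 0.960, 1.67 and 0.585 CPM in WT and 64.0, 13.2, 18.3 and 37.0 CPM in the others. In pools of so few cells, fewer cells with a transcript and less transcript per cell cannot be told apart.

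On the lower side, genes of chromatin, protein glycosylation and microtubules were expressed in every library. Ubn1, a subunit of the HIRA chaperone that deposits histone H3.3, had the smallest p of all genes, with 240.5, 197, 189 and 201 CPM in WT libraries and 38.8, 40.5, 81.9 and 48.0 CPM in those labelled Gfra2-/-. Its log2 fold change was -1.98 (SE 0.33, FDR = 0.392 from edgeR). Guanine deaminase (Gda) had 89.9, 169, 84.6 and 101 CPM against 18.5, 18.4, 9.43 and 5.80 CPM, a log2 fold change of -3.09 (SE 0.53). The transcription factor Yy1 had 161, 94.3, 106 and 123 CPM in WT and 31.3, 39.5, 20.4 and 48.7 CPM in the others, a log2 fold change of -1.79 (SE 0.40). Dad1, a subunit of the oligosaccharyltransferase, had 341, 265, 287 and 321 against 171, 144, 127 and 135 CPM. The microtubule plus-end protein Mapre1 had 386, 309.8, 359 and 327 against 133, 214, 186 and 168 CPM. In all 5 genes every library labelled Gfra2-/- lay below the lowest WT library.

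Several lower genes were near 0 in the libraries labelled Gfra2-/-. Colca2 had 175, 88, 56 and 202 counts in WT libraries and 0 in all 4 others, at least 72.2-fold lower. The metalloproteinase Mmp17 had 36, 33, 334 and 205 counts against 0, 1, 0 and 0. The phosphatase Ppm1l had 50, 73, 68 and 57 against 0, 0, 1 and 2 counts. Dusp10, a phosphatase of JNK and p38 kinases, had 16, 119, 92 and 106 against 1, 0, 2 and 0 counts. WT libraries differed widely in the CPM of Colca2 (5.20 to 43.5), Mmp17 (2.26 to 31.0), Sumf1 (3.23 to 32.3) and Col11a2 (1.76 to 21.3). Sumf1, which activates sulfatases, had 13, 471, 243 and 86 against 4, 1, 0 and 1 counts. The collagen gene Col11a2 had 20, 310, 19 and 60 against 1, 1, 1 and 0 counts. The extracellular protein Emilin2 had 82, 215, 165 and 487 against 0, 9, 0 and 0 counts. 6430550D23Rik, with the fewest reads of the set, had 7, 37, 27 and 29 against 0, 0, 0 and 1 counts. Its WT values were close in CPM, at 1.74 to 2.54. Over the whole table, 7 genes had at most 3 counts in every WT library and at least 20 in each of the others, and 4 genes the reverse. Beyond those above these were the noncoding or predicted genes Gm43075 (311, 115, 34 and 128 counts in the libraries labelled Gfra2-/- and 0 in WT), 9530052C20Rik (67, 71, 69 and 370 and 0) and Gm37084 (24, 29, 84 and 48 counts in WT and 0, 1, 1 and 0 in the others). Reads were counted without strand, so reads where genes on opposite strands overlap could not be told apart by strand.

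Genes of the cytosolic ribosome were lower as a group in the libraries labelled Gfra2-/-. Of 81 ribosomal protein genes tested out of 84 in the table, 24 were lower and 0 higher at an unadjusted p under 0.05, or 29.6% against 6.69% of all genes. In 23 of the 81 every labelled library lay below every WT library (3.56% of all genes did so), and 74 had a fitted fold change below 0, where 48.5% of all genes did. The median log2 fold change was -0.55, against 0.03 for all genes. DESeq2 called 6 of them lower and 0 higher at an FDR of 0.1. Together these genes took 3.59%, 3.16%, 2.81% and 3.26% of the gene counts in WT libraries A to D and 2.54%, 1.79%, 2.57% and 1.76% in libraries A to D labelled Gfra2-/-. The mean share was 3.21% ± 0.324 (SD, n = 4) in WT and 2.16% ± 0.451 (SD, n = 4) in the others, and an exact two-sided permutation test gave p = 0.0286, the smallest that 4 libraries against 4 can give. Without libraries B and D labelled Gfra2-/- the shares of the groups were still apart. The exact permutation p was then 0.133, the smallest that this test can give for 2 libraries against 4. The gene group was chosen with earlier results of these data known. Other values per library were tested too, without correction, so both p-values are descriptions.

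By gene, the acidic stalk protein Rplp1 had 1757, 970.3, 842 and 1059 CPM in WT libraries and 649, 357, 616 and 394 CPM in those labelled Gfra2-/-, a log2 fold change of -1.20 (SE 0.30). Rps15, a protein of the small subunit, had 591, 395, 297 and 380.4 CPM against 234, 193, 207 and 139.8 CPM, a log2 fold change of -1.10 (SE 0.28). Both genes were separated by group, with WT library A highest and library B or D labelled Gfra2-/- lowest. Rpl41 of the large subunit had 386, 238, 206 and 283 against 165, 111, 153 and 84.4 CPM. In Rps14, Rps24, Rpl23, Rpl32, Rpl37a and Rps18, which were also lower at p under 0.05, library C labelled Gfra2-/- reached above WT library C, the lowest WT library. The libraries contributed unequally. The median member of the group differed from its WT mean by -0.32, -0.94, -0.27 and -0.86 on the log2(CPM + 1) scale in libraries A to D labelled Gfra2-/-, so B and D, the libraries with the most Gfra2 reads, were lowest. Libraries B and D also had the lowest voom quality weights of the 8, at 0.705 and 0.625. Reads outside annotated genes took 29.9% of reads in B and at most 21.9% in any other endosteal library. Ribosomal RNA took 10.2% of gene counts in D and at most 8.09% in any other. The part of these measures in the difference was not tested. Without B and D, 5 members instead of 24 were lower at p under 0.05, 67 had a fold change below 0 and the median was -0.32. Leaving out WT library A together with library D labelled Gfra2-/- gave 9 members and a median of -0.37. With size factors from the spike-in RNAs, which set the median of all genes at -0.28, the median was -0.96, or -0.68 relative to all genes, and 0 members were lower at p under 0.05. Ribosomal protein genes have many processed pseudogenes, and reads shared with those copies make single values uncertain.

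**Figure D2:**
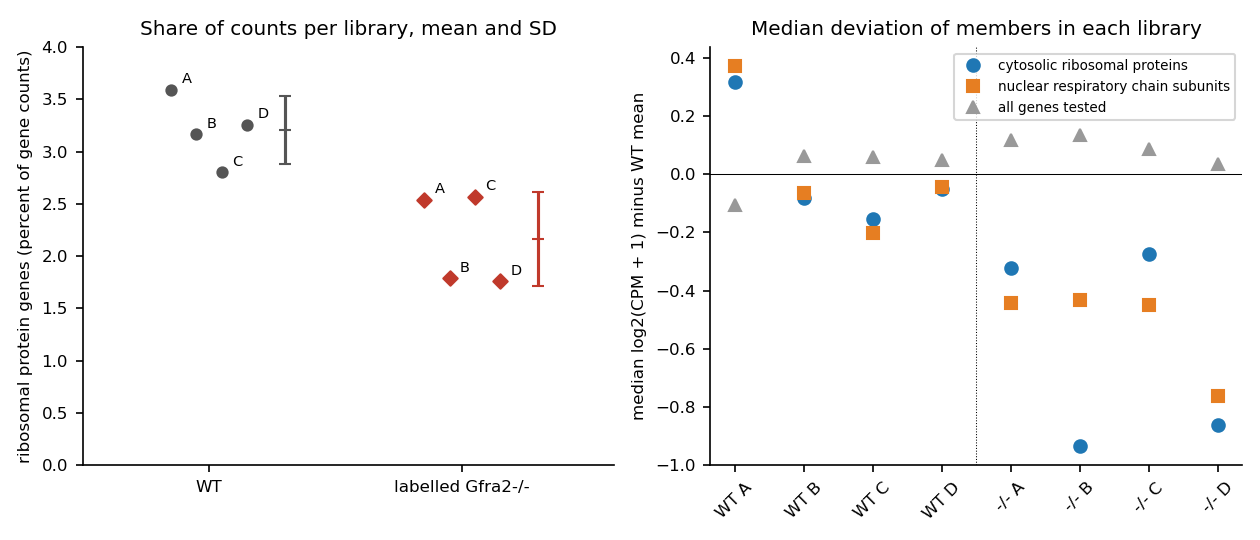
Left, share of gene counts on cytosolic ribosomal protein genes in each library (percent), with the mean and SD of each group as bars. Right, median deviation of the members of each group from their WT mean in each library, on the log2(CPM + 1) scale; the ribosomal share lay between 2.81% and 3.59% in WT and between 1.76% and 2.57% in libraries labelled Gfra2-/-.

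Nuclear genes of the respiratory chain showed the same direction. This list holds subunits of complexes I to IV and of ATP synthase, which sit in the inner mitochondrial membrane. Of 79 tested, 22 were lower and 0 higher at an unadjusted p under 0.05 (27.8% against 6.69% of all genes), 23 lay below WT in every library, 68 had a fold change below 0 and the median was -0.55. Atp5j2, a subunit of ATP synthase, had 188, 116, 133 and 138 CPM in WT libraries and 51.8, 47.8, 83.2 and 45.4 CPM in those labelled Gfra2-/-, a log2 fold change of -1.33 (SE 0.34). Cox5a, of cytochrome c oxidase, had 166, 149, 142 and 177 against 101, 81.0, 66.5 and 47.9 CPM, a log2 fold change of -1.10 (SE 0.31). In both genes no library labelled Gfra2-/- reached the lowest WT library. Uqcr11, of complex III, had 208, 115, 89.9 and 161 against 66.2, 75.4, 58.1 and 40.6 CPM. Ndufc2, of complex I, had 161, 162, 117 and 196 against 82.6, 115, 52.7 and 84.5 CPM, so the lower members came from several complexes. With spike-in size factors the median was -0.96, or -0.68 relative to all genes, and 0 members were lower at p under 0.05. Here the median deviation was similar in 3 of the libraries labelled Gfra2-/-, at -0.44, -0.43, -0.45 and -0.76 in A to D. Without libraries B and D, 9 members were lower at p under 0.05, 68 had a fold change below 0 and the median was -0.47. Without WT library A and library D labelled Gfra2-/-, 9 members were lower and the median was -0.34.

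**Figure D3:**
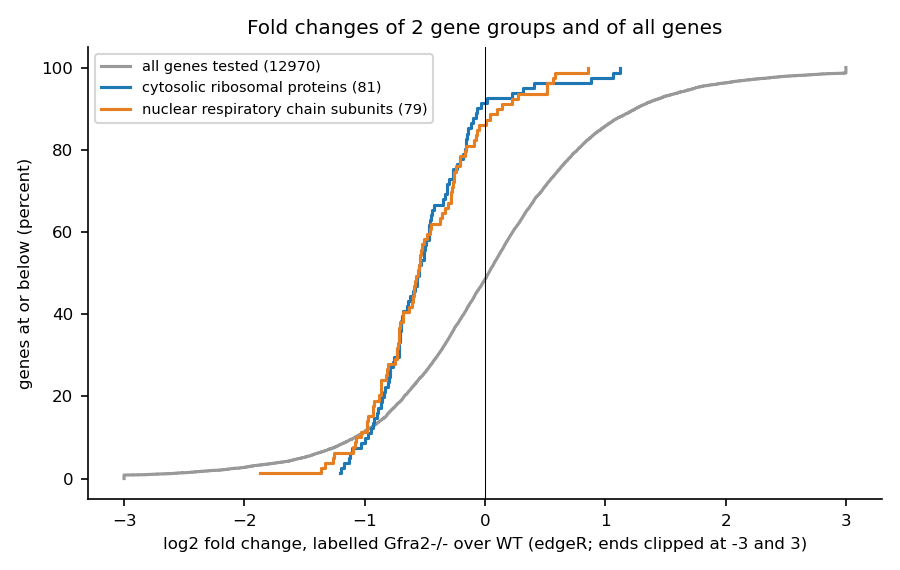
Cumulative share of genes (percent) by log2 fold change from edgeR, libraries labelled Gfra2-/- over WT, for all genes tested, cytosolic ribosomal proteins and nuclear respiratory chain subunits. The median was -0.55 for ribosomal proteins, -0.55 for the respiratory chain and 0.03 for all genes.

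Promoter sequence was read for both groups, since both lay lower as groups, from RefSeq promoters of GRCm38.p6 that span 250 bases before to 50 bases after each gene's start. The letters CCGGAAG, the core bound by ETS factors such as GABP, were searched on both strands. They occurred in 25 of 61 ribosomal protein genes with a promoter (41%), in 16 of 63 respiratory chain genes (25.4%), in 21.7% of genes tested and in 9.93% of all genes with a promoter. AAGATGGC, the core bound by YY1, occurred in 6 (9.84%) and 9 (14.3%) of the same genes, in 5.73% of genes tested and in 3.19% of all. The 2 motifs were counted separately, and a match in these letters is a description of the sequence only. To show where the ETS core lies, 80 bases around it are printed for 3 ribosomal and 2 respiratory genes. These genes were lower at an unadjusted p under 0.05 from edgeR and hold the core before the gene's start. They are examples, and other genes of both groups that hold the core are not printed. The bases are read 5′ to 3′ on the strand of the gene, with the motif or its reverse complement in capitals.
Rpl41 (chr10:128549182-128549261, - strand): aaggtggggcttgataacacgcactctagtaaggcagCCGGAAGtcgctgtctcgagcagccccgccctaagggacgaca
Rplp2 (chr7:141447506-141447585, + strand): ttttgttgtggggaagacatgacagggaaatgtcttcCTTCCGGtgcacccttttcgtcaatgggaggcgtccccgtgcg
Rpsa (chr9:120127541-120127620, + strand): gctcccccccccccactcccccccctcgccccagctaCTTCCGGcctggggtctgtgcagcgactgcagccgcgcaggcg
Uqcr11 (chr10:80406845-80406924, - strand): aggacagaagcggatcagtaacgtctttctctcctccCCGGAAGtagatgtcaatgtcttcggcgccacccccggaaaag
Atp5e (chr2:174464161-174464240, - strand): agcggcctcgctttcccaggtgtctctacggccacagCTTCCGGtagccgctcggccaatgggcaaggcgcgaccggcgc

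By exonic length, the median fold change was lowest in the shortest genes. Exonic length had a median of 1781 bases in ribosomal protein genes and 1675 bases in respiratory chain genes, against 4600 bases in all protein-coding genes tested. After both groups were set aside, the shortest of 5 classes of protein-coding genes (90 to 2592 bases) had a median log2 fold change of -0.11, and the longest (7807 bases and over) one of 0.11. By library the groups overlapped in the other genes of the shortest class. Their median deviation from the WT mean was -0.05, 0.08, 0.003 and 0.07 in WT libraries A to D. In libraries A to D labelled Gfra2-/- it was -0.04, 0.03, -0.09 and -0.11. Within the shortest class the ribosomal protein genes had a median of -0.57 and the respiratory chain genes one of -0.60. At p under 0.05, 5.27% of the other genes in the shortest class were lower and 2.07% higher, and in the longest 2.14% were lower and 4.75% higher. The part of length in the differences of single genes was not tested.

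**Figure D4:**
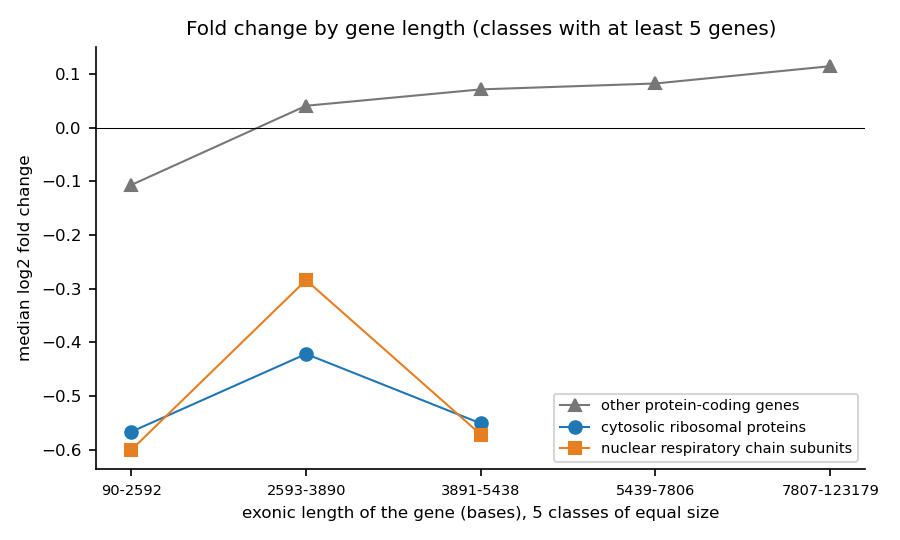
Median log2 fold change, libraries labelled Gfra2-/- over WT, by exonic gene length in 5 classes of equal size (bases), for other protein-coding genes, ribosomal proteins and respiratory chain subunits; classes with under 5 genes of a group are not drawn. Within the shortest class the medians were -0.11, -0.57 and -0.60.

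Genes encoded by mitochondrial DNA differed among themselves. Of 12 tested, 4 had an unadjusted p under 0.05, all lower and all of complex I (mt-Nd2, mt-Nd6, mt-Nd4 and mt-Nd1). The subunit mt-Nd2 had 2562, 1267, 1155 and 1673 CPM in WT libraries and 778, 606, 743 and 550.1 CPM in those labelled Gfra2-/-, a log2 fold change of -1.31 (SE 0.27). mt-Nd6, the one subunit read from the opposite strand, had 2090.3, 768, 659 and 1242 against 605, 448, 476 and 289 CPM. mt-Nd4 had 2733, 1959, 2056 and 2352 against 1818, 1022, 1246 and 1234 CPM. These 3 genes were separated by group. Cytochrome oxidase subunit mt-Co1 went the other way, at 4188, 6096, 7463 and 4829.5 against 9502, 4817, 7679.9 and 9888 CPM with overlapping groups. The whole mitochondrial share was 5.74% ± 0.772 (SD, n = 4) in WT and 5.20% ± 1.54 (SD, n = 4) in the others (exact two-sided permutation p = 0.514). Nuclear copies of mitochondrial DNA can take or lend reads here. Among 77 mitochondrial ribosomal proteins, 8 were lower and 1 higher at p under 0.05, and the median was -0.17. Mrpl28 had 115, 146, 118 and 184 against 67.2, 55.0, 58.9 and 99.1 CPM, below WT in every library. Mrps6 had 170.2, 35.0, 56.9 and 75.3 against 47.3, 25.0, 24.9 and 16.1 CPM, with overlap.

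Myc was higher in every labelled library, while several genes it is known to drive were lower. Myc, a factor of cell growth, had 135, 168, 122 and 146 CPM in WT libraries A to D and 224, 348, 204 and 245 CPM in libraries A to D labelled Gfra2-/-, a log2 fold change of 0.84 (SE 0.26, FDR = 0.696 from edgeR). Each labelled library exceeded the highest WT library. Of the 22 genes of the Myc network, 6 were lower and 2 higher at p under 0.05 (36.4%, against 6.69% of all genes). In 9 of the 22 the fold change was above 0. The median was -0.21, also without libraries B and D labelled Gfra2-/-, and -0.11 without WT library A and library D labelled Gfra2-/-. By library the median deviation from the WT mean was -0.06, 0.19, -0.19 and -0.20 in A to D labelled Gfra2-/-. The nucleoside diphosphate kinase Nme1 had 262, 182, 226 and 189 against 120.2, 127, 109.8 and 74.7 CPM. The nucleolar protein Npm1 had 651, 544, 496 and 616 against 421, 272, 348 and 317 CPM. Odc1, the first enzyme of polyamine synthesis, had 84.0, 45.6, 56.1 and 44.8 against 24.9, 16.2, 13.2 and 20.5 CPM. These 3 were below WT in every library, and so were Ptma, Cad and Mnt. Cad, of pyrimidine synthesis, had 139, 159, 255 and 199 against 101, 91.5, 102 and 122 CPM. Mnt, a repressor that pairs with Max, had 52.7, 35.2, 55.8 and 57.0 against 23.6, 9.09, 10.4 and 29.5 CPM. Mlx, which pairs with relatives of Mnt, was the other higher gene, with 3.23, 22.7, 10.6 and 9.86 against 35.4, 19.6, 35.9 and 78.3 CPM with overlapping groups.

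Other lists of protein synthesis and turnover had smaller shares of genes at p under 0.05 than the ribosomal and respiratory groups. Of 43 translation factors, 3 were lower and 1 higher (9.30%, against 6.69% of all genes). In 31 of the 43 the fold change was below 0, and the median was -0.26. The elongation factor Eef1d had 325, 275, 311 and 414 against 219, 167, 211 and 156 CPM. The poly(A)-binding protein Pabpc1 had 1164, 583, 549 and 735 against 497, 476, 414 and 284 CPM. Both were below WT in every library, whereas the helicase Eif4a2 had 151, 315, 258 and 271 against 337, 522, 492 and 347 CPM and was above it in every library. Nucleolar ribosome biogenesis genes had 2 lower and 1 higher of 42 (7.14%), with a median of 0.10. Gnl2, which helps to export the large subunit, had 29.1, 62.7, 29.5 and 54.1 against 54.9, 144, 74.6 and 148 CPM. In the proteasome 4 were lower and 1 higher of 37 (13.5%), with a median of -0.11. The activator Psme3 had 456, 153, 159 and 215 against 75.0, 41.2, 76.6 and 104 CPM. The assembly factor Pomp had 330.1, 229, 235 and 264 against 150.3, 134, 193 and 139 CPM. Both were below WT in every library. Spliceosome and RNA-binding genes had 3 lower and 1 higher of 56 (7.14%). In 37 of the 56 the fold change was below 0, and the median was -0.22. Hnrnpd, which binds AU-rich mRNA, had 232, 95.4, 81.3 and 117 against 57.6, 73.4, 35.0 and 27.1 CPM, with a gap between the groups. Its relative Hnrnpab had 224, 125, 197 and 325 against 138, 108, 99.3 and 91.4 CPM, with overlap. The splicing factor Srsf5 was the higher gene, at 213, 234, 184 and 178 against 314, 256, 402 and 314 CPM, above WT in every library.

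HSC identity genes stood near the background in the share at p under 0.05. Of 44 tested, 4 were lower and 0 higher (9.09%, against 6.69% of all genes), and the median was -0.23. This median was closer to 0 without WT library A (-0.05), library B labelled Gfra2-/- (-0.14) or library D labelled Gfra2-/- (-0.09), and it was -0.07 without libraries B and D labelled Gfra2-/- and -0.02 with voom quality weights. The interferon-induced membrane protein Ifitm3, which restricts virus entry, had 1126, 849, 1121 and 845 CPM in WT libraries and 477, 643, 484 and 532 CPM in those labelled Gfra2-/-, a log2 fold change of -0.88 (SE 0.20, FDR = 0.491 from edgeR). Ifitm1 had 1329.9, 1396, 1449 and 1204 against 934, 750.0, 997 and 588 CPM. The surface protein Ly6e had 1568, 1267, 1142 and 1305 against 888, 853, 756 and 965 CPM. Each of these was separated by group, while the transcription factor Tal1 had 280.4, 78.7, 112 and 197 against 40.6, 67.1, 99.5 and 24.4 CPM with overlap. The HSC regulators Mecom (248, 129.8, 117 and 167 against 158, 169, 158 and 77.9 CPM) and Meis1 (745, 517, 475 and 488 against 570.1, 608, 576 and 560.3 CPM) overlapped between groups. Ifitm genes resemble each other closely, so their counting may share reads.

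The interferon response as a whole was divided. Of 46 genes, 4 were lower and 2 higher at p under 0.05 (13.0%, against 6.69% of all genes). In 23 the fold change was above 0 and in 23 below 0. Oas3, an antiviral synthetase, had 121, 134, 72.9 and 88.3 CPM in WT and 6.35, 45.2, 15.9 and 8.62 CPM in the others, with a gap between the groups. The factors Irf1 and Irf8 were the 2 higher genes. Irf1 had 39.7, 44.6, 58.2 and 149 against 189.9, 154, 127 and 304 CPM, with overlap. Irf8 had 0.248, 0.137, 8.08 and 0.251 against 18.9, 1.23, 19.6 and 374 CPM and was highest in library D labelled Gfra2-/-, which also held the B cell transcripts. In antigen presentation, 1 of 22 genes was higher and 1 lower. The nonclassical molecule H2-T23 had 116, 119.8, 163 and 94.6 against 210.2, 187, 272 and 189 CPM, above WT in every library. H2-Q7 had 336, 283, 235 and 283 against 195, 199, 183 and 166 CPM, below WT in every library. Both belong to families of closely related genes that may share reads.

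No regulator of quiescence or of entry into the cycle stood out from the spread between pools. None of 31 quiescence regulators and none of 23 G1 genes had a p under 0.05. Cdkn1c, the CDK inhibitor p57 that holds HSCs in quiescence, had 1.24, 42.9, 21.8 and 5.60 CPM in WT libraries and 47.1, 16.1, 14.6 and 84.2 CPM in the others. The groups overlapped, with a log2 fold change of 1.17 (SE 1.02, FDR = 0.867 from edgeR). Among quiescence regulators the smallest p belonged to the kinase Stk11 and the retinoblastoma relative Rbl2. Rbl2 had 55.4, 108, 85.5 and 47.6 against 81.5, 93.3, 119 and 201 CPM, and Stk11 had 205, 141, 49.4 and 43.4 against 50.3, 47.1, 78.4 and 48.0 CPM, both with overlap. In the G1 list the E2F factors E2f6 and E2f4 had the smallest p. E2f6 had 10.2, 47.5, 22.8 and 28.0 against 66.6, 34.3, 47.0 and 104 CPM, with overlap. E2f4 had 147, 84.7, 93.2 and 105 against 84.7, 79.7, 49.0 and 40.7 CPM, with a narrow gap between WT library B and library A labelled Gfra2-/-. In DNA replication, 4 of 60 genes were lower and 0 higher at p under 0.05 (6.67%). The single-strand binding protein Rpa1 had 433, 203, 207 and 189 against 81.0, 142, 124 and 98.1 CPM, and the maintenance methyltransferase Dnmt1 394, 365, 353 and 414 against 265, 219, 231 and 350.5 CPM, both below WT in every library. The ligase Lig1 had 277, 244, 171 and 224 against 97.1, 145, 172 and 158 CPM, with overlap.

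Mitosis genes gave no stable direction. The proliferation marker Mki67 had 5.71, 143, 245 and 260.5 CPM in WT libraries A to D and 114, 322, 224 and 57.3 CPM in libraries A to D labelled Gfra2-/-. It was lowest in WT library A and highest in library B labelled Gfra2-/-, and its log2 fold change was 0.13 (SE 0.85, FDR = 0.987 from edgeR), which turned to -0.28 without WT library A and to -1.35 with spike-in size factors. Of 65 mitosis genes, 1 was higher and 0 lower at p under 0.05. That gene was the cyclin Ccnb1, at 0.745, 0.891, 0.928 and 6.35 against 0.759, 67.8, 16.3 and 9.71 CPM with overlapping groups. The condensin Smc4 came next at 31.8, 100.1, 113 and 145 against 193, 278, 137 and 133 CPM, with overlap. The list median of 0.27 ranged from -0.36 (without library B labelled Gfra2-/-) to 0.92 (without WT library D) with each library left out in turn, and was 0.02 without WT library A and 0.56 without library D labelled Gfra2-/-. It was -0.20 without libraries B and D labelled Gfra2-/-, -1.11 with spike-in size factors and 1.07 without the libraries with under 0.5% spike-in.

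The receptors and ligands of the GDNF family were hardly detected. None of the 12 genes of the list passed the filter on low counts. The coreceptor Ret had a total of 1 count over the 8 libraries, and Gfra1 had 0, 0, 0 and 0 counts in WT libraries and 0, 2, 0 and 138 in those labelled Gfra2-/-, nearly all in library D. The ligand neurturin (Nrtn) had 0, 199, 0 and 0 counts in WT libraries and 113, 155, 1 and 2 in the others. Of the 35 cholinergic and adrenergic genes, 3 were tested and none had a p under 0.05. The nicotinic receptor subunit Chrnb1 had 10.9, 6.45, 52.0 and 8.78 against 58.9, 53.3, 49.6 and 60.0 CPM, lower in 3 WT libraries than in the rest.

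Niche and signalling genes were few among those with a p under 0.05. The chemokine receptor Cxcr4, which retains HSCs in BM, had 8.45, 5.83, 3.06 and 3.01 CPM in WT and 10.4, 5.65, 11.7 and 20.4 CPM in the others, a log2 fold change of 1.24 (SE 0.89) with overlapping groups. In its list 1 of 31 genes was lower and 0 higher at p under 0.05. This was the egress receptor S1pr1, at 141, 13.6, 29.3 and 17.3 against 1.59, 17.2, 9.78 and 5.44 CPM, with WT library A far above the rest. The integrin Itga6 had 559.9, 250.0, 199 and 132 against 104, 63.2, 261 and 70.9 CPM. Of 30 genes of the ERK pathway, 2 were lower and 0 higher (6.67%). The kinase Mapk3 (ERK1) had 112, 104, 57.5 and 151 against 25.5, 32.9, 55.4 and 45.2 CPM. It was below WT in every library. Immediate-early genes had 2 higher and 0 lower of 16 (12.5%, against 6.69% of all genes), with a median of -0.04. The higher genes were Myc and the phosphatase Dusp1 (7.20, 2.88, 20.6 and 11.1 against 17.6, 28.5, 36.8 and 73.9 CPM).

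In Notch signalling, 2 of 23 genes were higher and 1 lower at p under 0.05 (13.0%, against 6.69% of all genes). In 17 of the 23 the fold change was above 0, and the median was 0.44. By library the median deviation from the WT mean was 0.27, 0.73, 0.48 and 0.42 in A to D labelled Gfra2-/-. In WT libraries A to D it was 0.07, -0.005, -0.07 and -0.24. The receptor Notch1 had 1.99, 12.5, 16.0 and 35.8 CPM in WT and 56.7, 29.5, 28.3 and 13.0 CPM in the others, with overlap, and its log2 fold change of 0.94 turned to -0.62 with spike-in size factors. Aph1b, of the γ-secretase that cuts Notch, had 1.99, 0.549, 2.32 and 4.26 against 7.25, 3.34, 29.5 and 48.2 CPM. The protease Adam17, which cuts it first, had 81.0, 99.2, 70.9 and 30.8 against 102, 118, 236 and 114 CPM, above WT in every library. The target Hes1 was the lower gene, at 4.22, 10.3, 1.49 and 0.418 against 0, 0.308, 0.955 and 0 CPM. Id2, a target of BMP signals that blocks basic helix-loop-helix factors, had 0.248, 2.54, 5.85 and 2.01 CPM in WT libraries and 28.2, 22.8, 14.2 and 64.3 CPM in those labelled Gfra2-/-. Its groups were apart, at a log2 fold change of 3.59 (SE 1.04), and its list had 2 higher and 0 lower of 21. The other was the coreceptor Eng, at 272, 362, 218 and 197 against 531, 278, 426 and 383 CPM with overlap. Among 35 genes of gp130 and JAK-STAT signalling, the cytokine receptor chain Csf2rb was lower, at 34.0, 47.0, 82.7 and 21.1 against 3.59, 9.70, 13.0 and 12.6 CPM. The phosphatase Ptpn6 was higher, at 107, 245, 123 and 114 against 285, 191, 259.7 and 459 CPM with overlap. PI3K, AKT and mTOR genes had 2 higher and 1 lower of 35. Of the higher genes, the mTOR inhibitor Tsc2 had 44.2, 50.9, 25.3 and 73.7 against 42.0, 221, 164 and 80.9 CPM, and the kinase Gsk3b had 94.9, 127, 46.1 and 119 against 170.1, 475, 121 and 140.0 CPM, both highest in library B labelled Gfra2-/-.

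Chaperone lists stood near the background. At p under 0.05, 1 of 28 heat shock chaperones (3.57%) and 2 of 29 genes of the unfolded protein response and endoplasmic reticulum chaperones (6.90%) were higher and none lower, where 3.18% of all genes were higher, and the medians were 0.05 and 0.07. Hspa8, the constitutive HSP70, had 84.0, 159, 109.6 and 124 CPM in WT libraries and 246, 243, 219 and 282 CPM in the others, a log2 fold change of 1.05 (SE 0.27). Herpud1, of endoplasmic reticulum degradation, had 104, 148, 110.4 and 62.5 against 211, 155, 306 and 301 CPM. Both were apart by group, while the reticulum chaperone Hspa5 had 343, 471, 355 and 284 against 722, 492, 470.0 and 624 CPM with overlap. Hspa4, another HSP70, had 51.9, 31.7, 119 and 105 against 111, 133, 173 and 163 CPM and did not pass. Among 31 antioxidant enzymes 2 were lower and none higher. Thioredoxin Txn1 had 432, 398, 355 and 415 against 278, 231, 224 and 159 CPM, below WT in every library. Peroxiredoxin Prdx4 had 142, 213, 120.3 and 189.5 against 73.0, 125, 70.8 and 79.5 CPM, with overlap.

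Carbon metabolism, survival and autophagy genes stood near the background. In glycolysis, pyruvate kinase Pkm was lower, at 582, 549.8, 552 and 506 against 413, 416, 279 and 453 CPM with a gap between the groups. Aldolase Aldoc came next at 13.4, 1.78, 42.8 and 15.4 against 31.6, 95.2, 61.6 and 67.2 CPM, and the list had 1 lower and 0 higher of 30. In the TCA cycle and fatty acid oxidation, 2 were higher and 1 lower of 37. Ogdh, of the oxoglutarate dehydrogenase complex, had 313, 266, 260.1 and 245 against 191, 168, 109.9 and 226 CPM, below WT in every library. Dlst, of the same complex, had 39.2, 147, 132 and 117 against 141, 131, 271 and 401 CPM, higher with overlap. Fumarase Fh1 had 17.9, 94.3, 81.1 and 45.9 against 101, 137, 162 and 114 CPM, above WT in every library. Autophagy genes had 1 higher and 1 lower of 36. The cargo receptor Nbr1 had 7.45, 40.5, 30.0 and 86.2 against 192, 66.1, 168 and 97.2 CPM. The mitophagy receptor Fundc1 had 312, 158, 81.3 and 129.6 against 84.3, 89.3, 97.4 and 77.6 CPM. Both overlapped between groups. None of 20 genes of the BCL2 family and its partners had a p under 0.05, the nearest being Casp8 (115, 147, 151 and 163 against 89.0, 144, 77.1 and 61.9 CPM) and Mcl1 (386, 167, 125 and 158 against 101, 117, 74.8 and 200.4 CPM).

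Among chromatin and repair genes, Ezh1 and Brca1 were above WT in every library. Ezh1, a histone H3 lysine methyltransferase of Polycomb that is active in resting cells, had 8.45, 29.8, 34.4 and 21.1 CPM in WT and 96.3, 96.4, 143 and 80.4 CPM in the libraries labelled Gfra2-/-, a log2 fold change of 2.15 (SE 0.51, FDR = 0.574 from edgeR). The methyltransferase Kmt2d had 146, 479.8, 297 and 169 against 419, 602, 540.0 and 547 CPM with overlap, and the list had 2 higher and 1 lower of 34. Brca1, of homologous recombination, had 0.745, 0.0686, 13.0 and 2.42 against 13.8, 69.4, 65.5 and 44.2 CPM. The damage kinase Atm, with overlap, had 54.4, 90.9, 56.0 and 40.2 against 77.9, 120.3, 116 and 132 CPM. The helicase Ercc3 was lower, at 164, 32.6, 44.4 and 18.3 against 16.8, 8.83, 3.46 and 31.3 CPM. The list had 2 higher and 1 lower of 40.

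Among lineage genes, the higher globins rested on a single library, whereas Car2 was above WT in all 4 libraries labelled Gfra2-/-. Of 15 erythroid genes tested, 4 were higher at p under 0.05 and 0 lower (26.7%, against 6.69% of all genes). In 8 of the 15 the fold change was below 0, and the median was -0.25. Beside Car2 these were the globins and Klf1. Hbb-bs had 2.48, 3.15, 0.928 and 2.17 against 4.21, 2.31, 0.239 and 341 CPM. Hba-a1, which has a near-identical copy, had 1.24, 0, 1.30 and 1.42 against 4.83, 0.462, 0.477 and 98.1 CPM. The erythroid factor Klf1 had 0, 0.137, 1.86 and 0 against 8.97, 28.9, 1.31 and 2.54 CPM. The globins were high in library D labelled Gfra2-/- alone, Klf1 was above every WT library in A, B and D and highest in B, and without library D 2 genes had a p under 0.05. Megakaryocyte genes had 1 lower of 20. This was the GATA1 cofactor Zfpm1, at 107, 99.7, 77.2 and 131 against 68.2, 14.8, 48.6 and 20.8 CPM, below WT in every library. Of 15 myeloid and lymphoid genes 2 were higher and 1 lower (20.0%, against 6.69% of all genes). The higher genes were Ighm and Irf8, both highest in library D, although Irf8 was above every WT library in A and C as well. The lower gene was the granule protease Prtn3, at 426, 153, 239 and 161 against 139.6, 133, 102 and 70.1 CPM, below WT in every library.

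**Figure D5:**
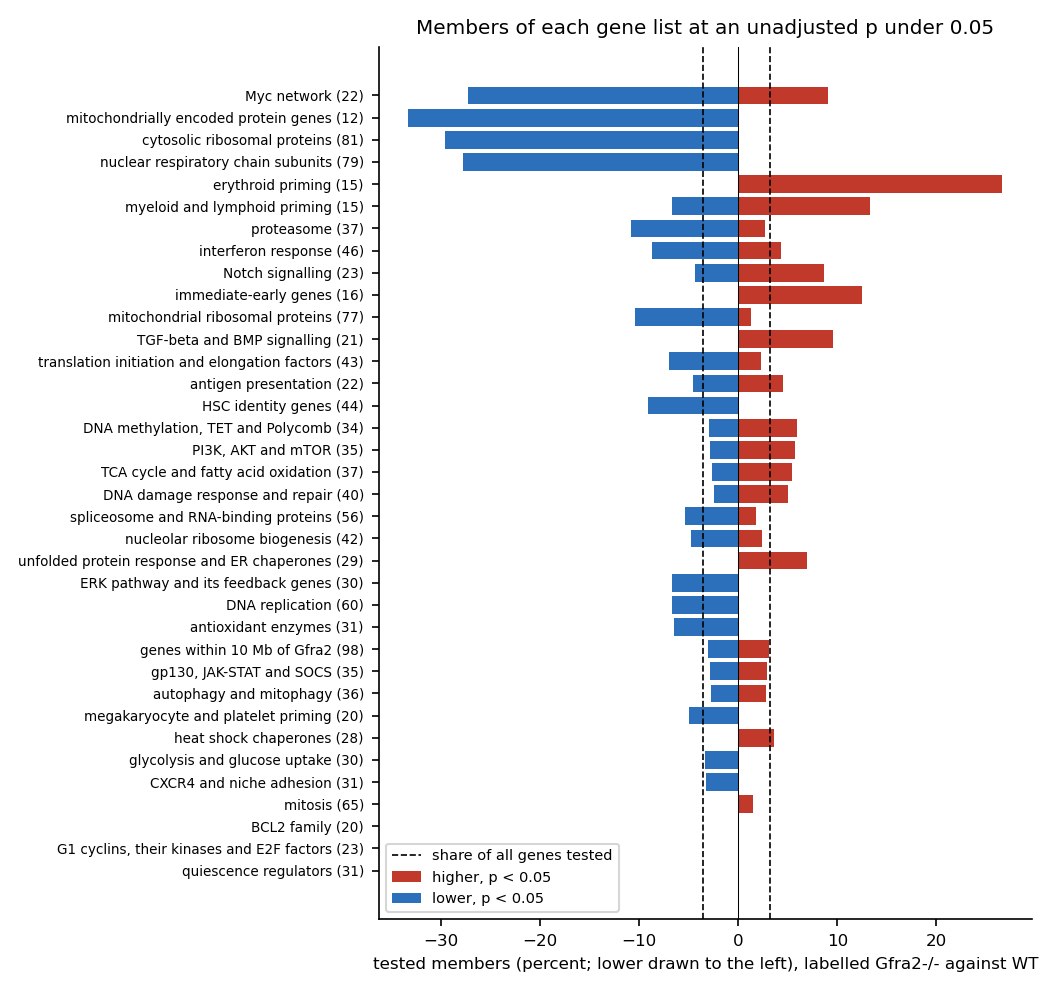
Share of tested members (percent) at an unadjusted p under 0.05 from edgeR in each gene list with at least 10 tested members, higher to the right and lower to the left, with the number tested in brackets. The dashed lines mark the share of all genes, 3.18% higher and 3.52% lower; cytosolic ribosomal proteins had 29.6% and respiratory chain subunits 27.8%, all lower.

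Genes near Gfra2 on chromosome 14 were examined separately, since DNA beside a targeted gene can differ from that of WT mice. Its part in the values was not tested. Of 98 genes tested within 10 Mb of Gfra2, 3 were higher and 3 lower at p under 0.05, or 6.12% against 6.69% of all genes. Dok2, a docking protein that dampens kinase signals and lies 0.112 Mb from Gfra2, had 31.8, 110.1, 53.8 and 34.4 CPM in WT libraries and 166, 135, 165 and 166 CPM in those labelled Gfra2-/-, a log2 fold change of 1.45 (SE 0.43). Mtmr9, a myotubularin-related protein 7.35 Mb away, had 0.994, 13.3, 5.48 and 3.43 against 65.4, 41.1, 42.7 and 109.9 CPM, a log2 fold change of 3.47 (SE 0.83). Both were higher in every labelled library than in any WT library. Dad1 and Ccnb1ip1, described above, lie 16.6 and 20.1 Mb away on the same chromosome.

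The genotype difference was then set beside that in HSCs of central BM, from 4 WT and 3 Gfra2-/- libraries. Depth was unequal there, with 826487 to 3367289 gene counts in WT and 7649803 to 14716308 in Gfra2-/- libraries, and cannot be told apart from genotype. A test of the interaction between genotype and compartment over all 15 libraries passed 0 of 15416 genes at an FDR of 0.1 in edgeR, and 1074 (6.97%) had an unadjusted p under 0.05, 2.56% with a fold change that was higher and 4.41% with one that was lower in endosteal than in central HSCs, while DESeq2 passed 245 genes. In central HSCs the median log2 fold change of ribosomal protein genes was -0.45 and that of the respiratory chain -0.46, where all genes tested had 0.12. In the interaction 6 of 81 ribosomal and 4 of 79 respiratory genes had a p under 0.05, all lower, against 4.41% of all genes. Lower here means a lower genotype fold change in endosteal than in central HSCs. The median interaction log2 fold change was -0.18 and -0.14 in these groups, against -0.11 for all genes tested.

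The central libraries took no part in the choice of the 15 genes in each direction. Of the 15 genes that were higher in endosteal libraries labelled Gfra2-/-, 13 were also higher in central ones (54.7% of all genes were), 4 of them at p under 0.05 (7.54% of all genes). These were Car2, Trpc6, Capn11 and Ccnb1ip1. Of the 15 lower genes, 12 were also lower in central HSCs (45.3% of all genes were), 6 of them at p under 0.05 (4.57% of all genes), among them mt-Nd2, Dad1 and Gda. None of the 15 in either direction had a p under 0.05 the opposite way. Car2 had a central log2 fold change of 0.91, Dad1 one of -1.17 and Gda one of -1.64. mt-Nd2, at -2.19, passed an FDR of 0.1 there (0.0307 from edgeR). Ccnb1ip1 had 0 counts in all central WT libraries as well, and 11, 70 and 136 counts in the Gfra2-/- ones. Gpr4, by contrast, was read in both central groups, WT with 45, 48, 0 and 1 counts and Gfra2-/- with 465, 138 and 37 counts, at a log2 fold change of 0.20. Fyttd1 (-0.01) and Sumf1 (-0.06) also had central log2 fold changes near 0, and the FDR of these 3 genes in the interaction was 0.523, 0.539 and 0.523 (edgeR), so a difference between the compartments was not shown.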

How the data were processed

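RNA-Seq was done on pools of 30 sorted HSCs that had been amplified as in Smart-seq2, with spike-in RNAs added. The authors aligned reads to mm10 with GSNAP and deposited read counts per gene made with HTSeq 0.5.3p3, so the values are raw counts. Reads of amplified complementary DNA carry no molecular identifiers, and sampling limits cover counting error only. Of 16 columns, 15 matched a group, and 1 was not used. Columns were tied to groups through the study's sample sheet, which gives no replicate numbers. The 46078 genes were filtered by expression to 12970, scaled by TMM and tested with edgeR 4.0.16 (quasi-likelihood, Benjamini-Hochberg, FDR 0.1), with DESeq2 1.42.0 and limma 3.58.1 (voom) in R 4.3.3 as alternatives. CPM used TMM-scaled library sizes, and fold changes are log2, libraries labelled Gfra2-/- over WT. The script was tested on simulated data.

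Genes were named by rule: Gfra2, Gfra1, Ret, Cxcr4, Myc, Notch1, Mki67 and Cdkn1c, the 15 protein-coding genes per direction with the smallest p among those without overlap, up to 10 genes per direction with at most 3 counts in 1 group and at least 20 in every library of the other, and the 2 members of each list with the smallest p. Further list members were named after their values were seen. The members and the 49 lists were chosen with earlier results of these data known. Alternatives changed the test, scaling, filter, depth, batch and libraries, and 1 of them (without WT library A and library D labelled Gfra2-/-) was chosen after seeing the data. Gene positions and lengths are those of GENCODE M21 on GRCm38. Promoters came from RefSeq. Some genes of the lists are not reported here by name.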

Additional observations from a re-analysis of the deposited data

Results flagged for a closer look

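Groups of 4 libraries were searched for a library whose gap to the nearest of the other 3 took up more of the group's range than Dixon's 95% critical value allows. Of 231 groups looked at, 27 had one. The critical value allows about 1 in 20 for independent, normally distributed values. The CPM of these pools need not be either, so the number flagged is a description. WT library A stood apart in the number of genes with at least 5 counts, 11451, and in the CPM of 6430550D23Rik (1.74), Dusp10 (3.97), Rpa1 (433), S1pr1 (141), Mcl1 (386), Ighm (1.49) and Col1a1 (1.24). It was the shallowest of the 8 libraries. Library D labelled Gfra2-/- stood apart upward in Gfra1 (12.5 CPM), 9530052C20Rik (33.6 CPM), Hbb-bs (341 CPM), Ighm (1659.8 CPM) and Cd79b (634 CPM), so its B cell and globin transcripts made up 3 of its 5 values.

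The other libraries had single genes each. WT library B stood apart in the CPM of Col11a2 (21.3), Ptpn6 (245) and C1qa (8.16), WT library C in Chrnb1 (52.0) and Klf1 (1.86), and WT library D in Ccnb1 (6.35). Among libraries labelled Gfra2-/-, A stood apart in Ccrl2 (8.01) and Klrb1c (11.3), B in Gsk3b (475), Prdx4 (125) and Dok2 (135), and C in Stk11 (78.4), Adam17 (236) and Atp5j2 (83.2). In Ccrl2, Dok2, Atp5j2, 6430550D23Rik, Col11a2, Dusp10 and Adam17 the genotypes were still separated with that library included.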

How the results depend on the processing

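No paired analysis was possible because the table's headers do not number the libraries within a group. Counts of genes at an FDR of 0.1 were 0 in edgeR with TMM and depended on the test and the scaling: DESeq2 gave 278 higher and 257 lower, spike-in size factors 4 and 2, and a fit of all 4 groups 1 lower. At an unadjusted p under 0.05 (412 higher, 456 lower), DESeq2 gave 994 and 1025, no filter on low counts 1298 and 1276, spike-in size factors 162 and 200, and the fit of all 4 groups 627 higher. The cause was not tested. For the difference between compartments DESeq2 passed 113 higher and 132 lower. Leaving out each library in turn gave 0 genes at the FDR in either direction, 330 to 570 higher and 322 to 505 lower at p under 0.05, and 0 for the compartments. The quality limits of the study removed none of the 8 libraries.

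Spike-in size factors turned Notch1 (-0.62), Mki67 (-1.35), Smc4 (-0.054), Runx2 (-0.0076), Nkg7 (-0.13) and the myeloid and lymphoid median (-0.13) below 0. Their median over all genes was -0.28, against 0.03. A minimum of 10 counts in every library turned the erythrocyte marker median (-0.24). Mki67 ranged from -0.33 to 0.45 with each library left out in turn. Other turned values were of genes near 0 or with low counts: Tie1 (-0.093 without low spike-in libraries, -0.12 to 0.31 with each library left out), C1qa (-0.0030 to 3.17 with each library left out), Nkg7 (-0.12 without WT library A and library D labelled Gfra2-/-, -0.14 to 0.86 with each library left out) and Ddx3y (-0.068 without low spike-in libraries, -0.52 without libraries B and D labelled Gfra2-/-). Cd79b turned in each fit without library D labelled Gfra2-/- (-0.34, -0.38, -0.23 and, as the lowest of a range up to 2.26 with each library left out, -0.062). Klrb1c turned above 0 with voom weights (0.15), without low spike-in libraries (1.51), with spike-in share as a term (0.49), without libraries B and D labelled Gfra2-/- (0.71) and ranged from -3.01 to 1.10 with each library left out. The difference in the share of the top 100 genes turned to -0.38 percentage points without low spike-in libraries.

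Over the named genes and alternatives, 2464 fold changes kept their direction and their side of the threshold, 68 gained a call, most in DESeq2, and 29 turned. Gfra2, GDNF receptors and most cholinergic genes were too few in reads for a difference to be detectable at this depth.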
